A study of Sus scrofa with 80 samples.

Results

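The transcripts of 6 pig genes, NTPCR, CCDC25, SAL1, TMEM176A, HNRNPL and RHOB, were followed across all 80 arrays of a survey of breed, sex and tissue, and their levels in Iberian pigs were set against those in the other breeds. They were measured by 12 probesets of the 23999 used, the ones whose single gene symbol in the platform annotation is one of these names, and the 6 genes stand among 6765 single symbols on the array. A probeset is a set of short probes designed against 1 transcript sequence, and the 12 were 4 for RHOB, 2 each for NTPCR, CCDC25 and TMEM176A, and 1 each for SAL1 and HNRNPL. Probesets of a gene are called first, second and so on in the order of their Affymetrix identifiers. The genes had been picked because Iberian values of these same arrays stood out, so every Iberian difference is given as a description, without a test. Under that description 4 of the genes set Iberian pigs apart in at least 1 tissue, whereas HNRNPL and RHOB did not: these separated individual animals of more than 1 breed.

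The study sampled hypothalamus, adenohypophysis, thyroid gland, gonad and backfat from each of 16 pigs and hybridized each sample to 1 array. Iberian pigs, a fat, slow-growing breed, were 89 days old and weighed 17.4 kg on average, with 2 males and 2 females. The 12 others were 4 Large White pigs (2 males and 2 females, 87 days, 27.2 kg), 4 Duroc pigs (2 males and 2 females, 83 days, 23.1 kg) and 4 Youli pigs (3 males and 1 female, 80 days, 18.9 kg), a synthetic breed. Breed, age and weight at sampling cannot be told apart. The pigs came from several breeding companies and the company of each breed is not stated, so supplier cannot be separated from breed here. All pigs were fed the same diets and were fasted before euthanasia. No experimental treatment is described for any animal. Animals are named below by breed code, sex and number, so that IBF25 is an Iberian female and LWM02 a Large White male.

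The 6 genes belong to no common pathway. CCDC25 encodes a coiled-coil protein which in human cells binds extracellular DNA at the cell surface and signals through integrin-linked kinase. NTPCR is an enzyme that hydrolyses nucleoside triphosphates. SAL1 is salivary lipocalin, the small carrier protein that binds the boar pheromone steroids in saliva, and lipocalins in general hold hydrophobic ligands in a barrel-shaped pocket. TMEM176A is a membrane protein related to the MS4A family, known from mouse dendritic cells. HNRNPL binds CA-rich RNA and steers splicing and stability of transcripts, and RHOB is an endosomal GTPase whose transcript is short-lived and is induced by growth factors and stress.

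Values were log2 intensities after GCRMA normalization, on which a step of 1 is a doubling of signal. The median of an array lay between 4.67 and 5.04, and 21.5% of all values were at or under 2.5, close to the floor of the scale. The arrays mostly carried the markers of their tissue: 10 of 10 measured adenohypophysis genes were above every array of the other tissues, against 3 of 4 thyroid genes, 4 of 6 backfat genes and 2 of 12 hypothalamus genes. The gonad array of IBF25 went against its label. It had lower values than the other 6 ovaries in 8 of 9 ovary markers, for example 2.22 for FST against 9.60 to 11.50 and 1.54 for INHA against 9.99 to 12.15. Several gonad results are therefore also given without it, while the tissue means over 16 animals, the tissue contrasts and the gap counts include it. The thyroid arrays of YLM20 and YLM19 held pituitary transcripts, with summed levels of 15.6 and 12.5 over 10 adenohypophysis genes (log2 of the summed intensities, as for all marker sums below). Hypothalamus arrays held them too, at 12.5 in YLM19, 10.7 in DUF13 and 9.08 in the Iberian male IBM24, against 5.40 to 7.58 in the other 13. The hypothalamus markers themselves summed to 15.3 to 15.8 in Iberian hypothalamus and 14.7 to 15.8 in the others, with 0 of 12 set apart and a median Iberian difference of 0.99 log2. The 8 with the higher Iberian mean were all neuropeptide genes, by 0.84 to 3.60 log2, and the 4 neuronal and glial genes differed by -0.17 to -0.05. The part of either in the hypothalamus values of NTPCR, SAL1 and TMEM176A below was not tested. Bulk tissue was measured, so fewer cells of a type and less RNA per cell cannot be told apart.

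An Iberian transcript was described as set apart where the 4 Iberian arrays all lay above, or all below, the 12 arrays of the other breeds. In the hypothalamus this held for 4 of the 12 probesets, 2 higher and 2 lower, where 0.413% of all probesets did so (0.179% higher and 0.233% lower). The adenohypophysis had 3 of 12 set apart, 3 higher and 0 lower, against 0.429% of all probesets (0.275% and 0.154%). The thyroid gland had 3 of 12, 1 higher and 2 lower, against 0.363% (0.179% and 0.183%). The gonad had 1 of 12, which was higher, against 0.1% (0.0583% and 0.0417%), and without IBF25 there were 2 of 12 against 0.521%. Backfat had 2 of 12, 1 higher and 1 lower, against 0.579% (0.408% and 0.171%). Averaged over the 5 tissues of each animal, 5 of 12 were set apart, 3 higher and 2 lower, against 0.475% (0.296% and 0.179%). Since the genes were picked on these values, nothing is read from the excess over the background. The median Iberian difference over all probesets was between -0.00 and 0.03 log2 in each tissue.

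**Figure D1:**
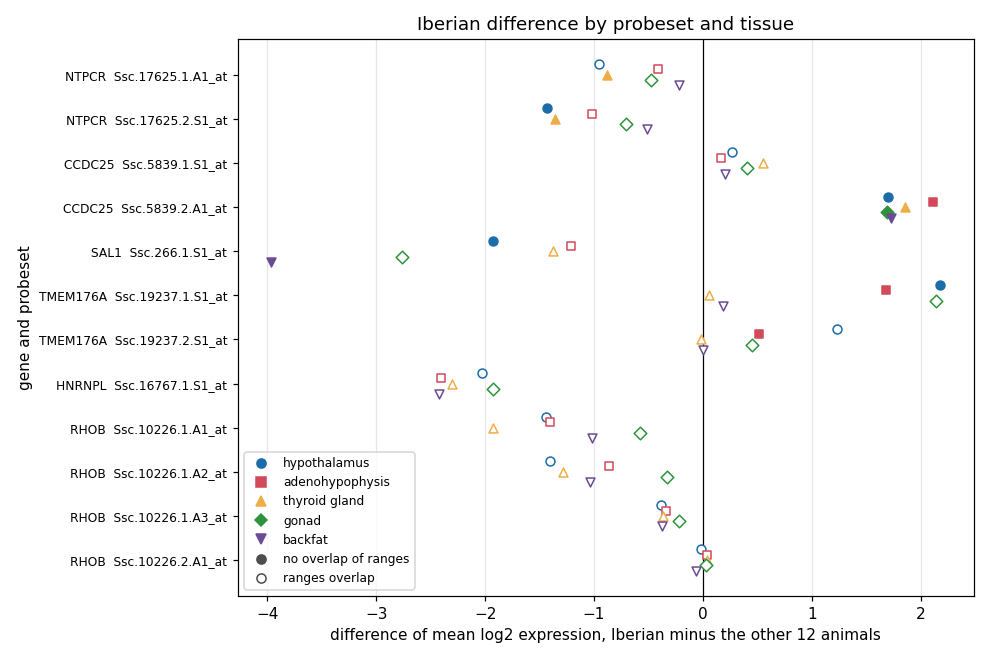
Iberian minus other breeds, mean log2 intensity (4 against 12 arrays per tissue), for each of the 12 probesets in each tissue, with filled points where the 4 Iberian arrays lay outside the range of the others. The second CCDC25 probeset is filled in all 5 tissues, between 1.69 and 2.11, whereas HNRNPL and the RHOB probesets have no filled point.

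CCDC25 was the member set apart in every tissue, and by 1 of its 2 probesets only. In the hypothalamus its second probeset read 9.03 and 9.06 in Iberian females (IBF22 and IBF25) and 9.18 and 9.0 in Iberian males (IBM23 and IBM24), against 6.60 to 8.48 (median 7.23) in the other breeds. In the adenohypophysis the 4 Iberian values were 9.72, 9.27, 9.57 and 8.96, against 6.44 to 8.07 (median 7.24). Thyroid values were 9.03, 9.29, 8.98 and 9.40, against 6.66 to 8.29 (median 7.26). In these 3 tissues the lowest Iberian array was thus above the highest of the others.

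The same held in the gonad and in backfat. The 4 gonad values of CCDC25 were 8.93, 8.96, 9.06 and 8.04 in Iberian pigs, against 6.36 to 7.65 (median 7.01) in the others, with IBM24 the lowest of the 4. In backfat they were 9.97, 8.72, 9.47 and 8.96, against 6.85 to 8.46 (median 7.53). Without IBF25, the gonad difference was 1.62 log2 and the ranges still did not meet.

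Over the 5 tissues, this CCDC25 probeset averaged 9.13 ± 0.21 in Iberian pigs (SD, n = 4) and 7.31 ± 0.42 in the others (n = 12), a difference of 1.82 log2 or 3.52-fold. The other breeds were close to each other, with 7.11 ± 0.53 in Large White, 7.62 ± 0.39 in Duroc and 7.22 ± 0.09 in Youli pigs (n = 4 each). The correlation of the animals' values between tissues averaged 0.93 over 10 tissue pairs (n = 16 animals, the same in each), a coefficient that holds the Iberian gap, and 0.60 (0.37 to 0.87) with breed means subtracted. Among the Iberian pigs the order changed: IBM24 was the lowest of the 4 in hypothalamus, adenohypophysis and gonad and the highest in the thyroid gland. Of all 23999 probesets, 1 was set apart in Iberian pigs in 5 of 5 tissues, and it was this one.

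The first CCDC25 probeset was the brighter of the pair, with a mean of 9.37 over all arrays against 7.77, and it overlapped between Iberian and other pigs in every tissue. Its Iberian differences ran between 0.16 and 0.55 log2. Thyroid arrays of IBF22 and IBM23 had 10.24 and 10.30 and were above the highest of the other breeds (9.63, LWM04), while IBF25 and IBM24 had 9.43 and 9.31 and lay among them. The next highest there was LWF05, at 9.55. IBF22 and IBM23 also lay above the other breeds in hypothalamus, at 10.27 and 10.51 against at most 9.96 (DUF14). Their adenohypophysis values were 9.45 and 9.49, against at most 9.36 (DUM15). Gonad values of the same animals were 9.10 and 9.55, with DUF13 at 9.41 between them. Both lay under DUM15 in backfat, at 9.91 and 9.95 against 10.11. The difference between 3′ and 5′ GAPDH control probesets, a measure that follows RNA integrity and labelling, ranked 14 and 16 of 16 from the lowest in the thyroid arrays of IBF22 and IBM23, 15 and 12 in those of LWM04 and LWF05, and 13 and 4 in those of IBF25 and IBM24. The part of RNA quality in these values was not tested. The pair therefore did not give the same picture of the gene. Their correlation over the 16 animals was between 0.32 and 0.62 by tissue, and between -0.37 and 0.50 with breed means subtracted.

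**Figure D2:**
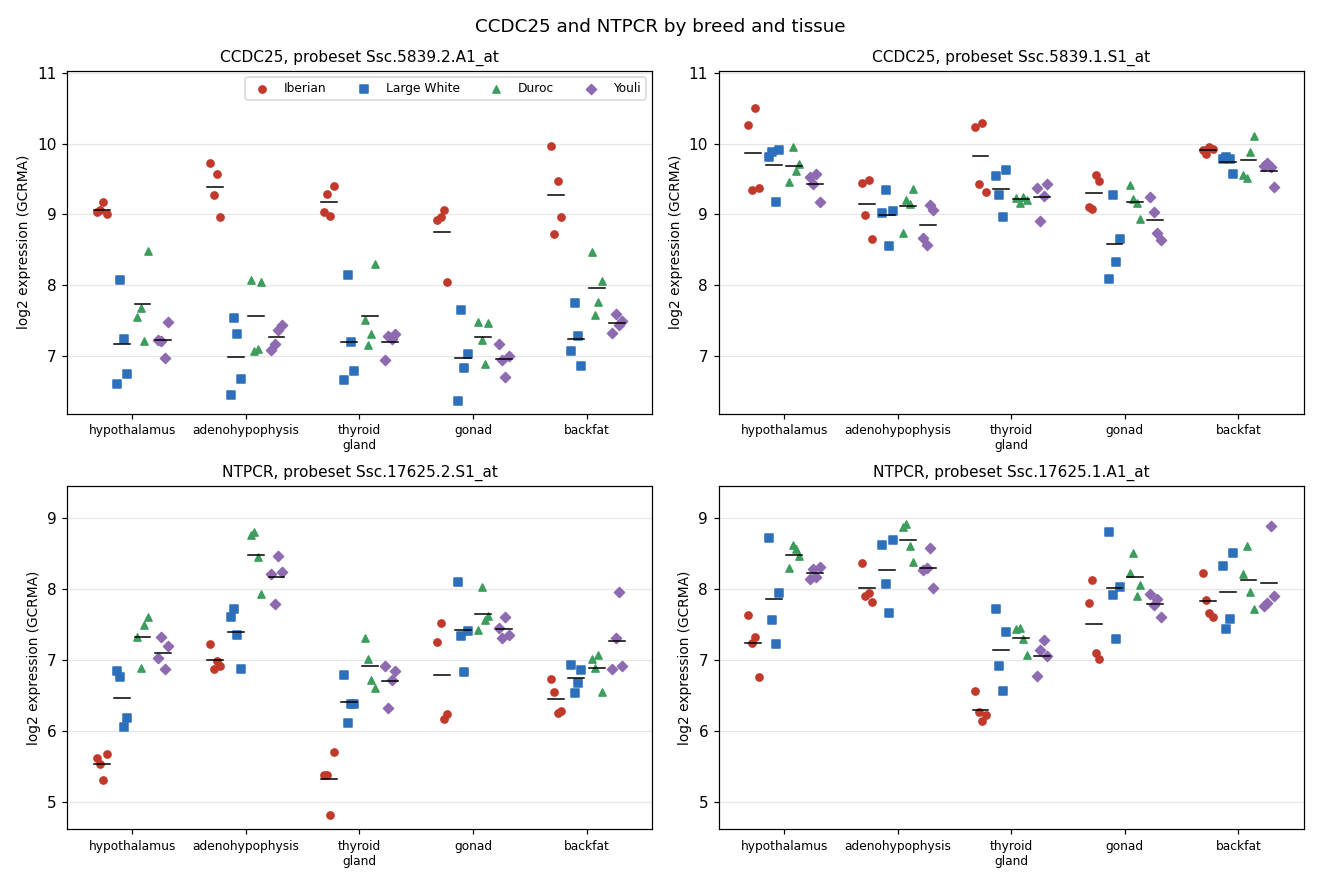
Log2 intensity of CCDC25 (upper) and NTPCR (lower), second probeset left and first probeset right, by tissue, with 1 point per array, Iberian pigs left of the other breeds and a short line at each breed mean. In the second probesets Iberian CCDC25 values lie between 8.04 and 9.97, above the other breeds within each tissue, and Iberian NTPCR values lie below them in the hypothalamus and thyroid gland.

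NTPCR was lower in Iberian pigs, most clearly in the hypothalamus and the thyroid gland. In the hypothalamus its second probeset read 5.62, 5.54, 5.31 and 5.68 in IBF22, IBF25, IBM23 and IBM24, against 6.06 to 7.61 (median 6.96) in the other breeds. In the thyroid gland the values were 5.39, 5.38, 4.82 and 5.71, against 6.11 to 7.32 (median 6.72). No array of the other breeds reached down to the Iberian ones in either tissue, and the differences were -1.43 and -1.36 log2, or 2.70-fold and 2.56-fold.

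In the adenohypophysis NTPCR values of 7.23, 6.87, 6.99 and 6.92 in Iberian pigs met those of the others at 6.87 (LWM04), although 11 of the 12 other arrays were above every Iberian one. The difference there was -1.02 log2, against -0.71 in the gonad (-0.95 without IBF25) and -0.51 in backfat, where the ranges overlapped. Taken within a sex, the only Iberian gonad array inside the range of the other breeds was that of IBF25. IBM23 and IBM24 had 6.17 and 6.24, under all 7 testes of the other breeds (6.83 to 7.62), while IBF22 had 7.26 and IBF25, whose array lacked ovary markers, had 7.53, against 7.35 to 8.10 in the 5 ovaries of the other breeds. The mean of 5 tissues was 6.22 ± 0.24 in Iberian pigs and 7.23 ± 0.31 in the others (SD, n = 4 and 12), or 2.01-fold lower, with 6.89 ± 0.26 in Large White, 7.46 ± 0.14 in Duroc and 7.34 ± 0.13 in Youli pigs.

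The first NTPCR probeset moved the same way with a smaller step. It was set apart in the thyroid gland alone, where 6.56, 6.27, 6.14 and 6.23 in Iberian pigs lay under 6.56 to 7.72 in the others, with a space of 0.002 log2 between the ranges. In the hypothalamus it differed by -0.95 log2, with Large White animals LWM02 (7.23) and LWF06 (7.57) inside the Iberian range of 6.76 to 7.64. The NTPCR pair correlated at 0.61 to 0.93 by tissue over 16 animals, and with breed means subtracted at 0.32 in hypothalamus, 0.23 in adenohypophysis, 0.37 in thyroid gland, 0.94 in gonad and 0.78 in backfat. Within breeds the pair thus ran closely together in gonad and backfat and loosely in the other tissues. Sex was not subtracted, so the gonad coefficient also holds the difference between testes and ovaries, -0.57 and -0.52 log2 for the pair. The members nearest to the threshold on its outer side were SAL1 in the thyroid gland, with a space between the ranges of -0.055 log2 (negative where they overlap), and the third RHOB probeset in the hypothalamus, with -0.059.

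SAL1 had the widest Iberian difference of the 12 probesets, in backfat. Its values there were 8.01, 6.45, 8.15 and 7.50 in IBF22, IBF25, IBM23 and IBM24, against 8.56 to 13.86 (median 11.71) in the others. The difference was -3.96 log2, or 15.6-fold lower. The nearest of the others was the Duroc female DUF14 at 8.56, followed by YLM19 at 9.37, and the remaining 10 lay at or above 10.03. In the hypothalamus SAL1 read 3.83, 3.52, 3.86 and 3.51, against 4.29 to 7.70 (median 5.25), a difference of -1.93 log2.

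In the other 3 tissues the SAL1 ranges overlapped. The adenohypophysis values were 4.01, 3.52, 3.51 and 4.04 in Iberian pigs, against 3.69 to 5.79 in the others, and DUF14 was the only other animal inside the Iberian range. In the thyroid gland the values were 2.5, 2.90, 2.81 and 2.88, against 2.85 to 7.56, with YLF21 at 2.85. In the gonad they were 3.23, 3.23, 4.95 and 4.50, against 3.77 to 9.0, with DUF14, LWF05 and LWF06 at 3.77, 4.83 and 4.92. The gonad difference of -2.76 log2 became -2.51 without IBF25. DUF14 was thus the animal nearest to the Iberian pigs in each tissue but the thyroid gland and hypothalamus, and its mean of 5 tissues was 4.83, next above the highest Iberian mean of 4.66.

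The mean of 5 tissues for SAL1 was 4.35 ± 0.31 in Iberian pigs and 6.59 ± 0.95 in the others (SD, n = 4 and 12), with 6.19 ± 0.37 in Large White, 7.11 ± 1.58 in Duroc and 6.48 ± 0.21 in Youli pigs. The wide Duroc spread held DUF14 at 4.83 and the males DUM12 and DUM15 at 7.98 and 8.35. Those males also stood alone in the thyroid gland, at 7.56 and 7.06, where the next animal had 4.79 (YLM20). Backfat markers varied between thyroid arrays: their summed level over 6 of 8 measured genes was highest in DUM12 (13.7) and YLM20 (13), followed by 12.8 in LWM02, 12.3 in LWF06, 12 in LWF05 and 11.7 in DUM15, against 9.84 to 11.3 in Iberian thyroids. The LWM02, LWF06 and LWF05 thyroids had SAL1 at 3.50, 3.21 and 3.48, under that of DUM15 (7.06). Skeletal muscle markers varied in backfat, with a summed level over 6 of 9 measured genes of 5.02 to 8.89 in Iberian pigs and 4.98 to 17.4 in the others, and of 17.4 in YLM19, 13.2 in DUM12 and 12.8 in DUF14. The part of either tissue in the SAL1 values was not tested. A further 4 probesets that carry SAL1 beside another symbol were left out.

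**Figure D3:**
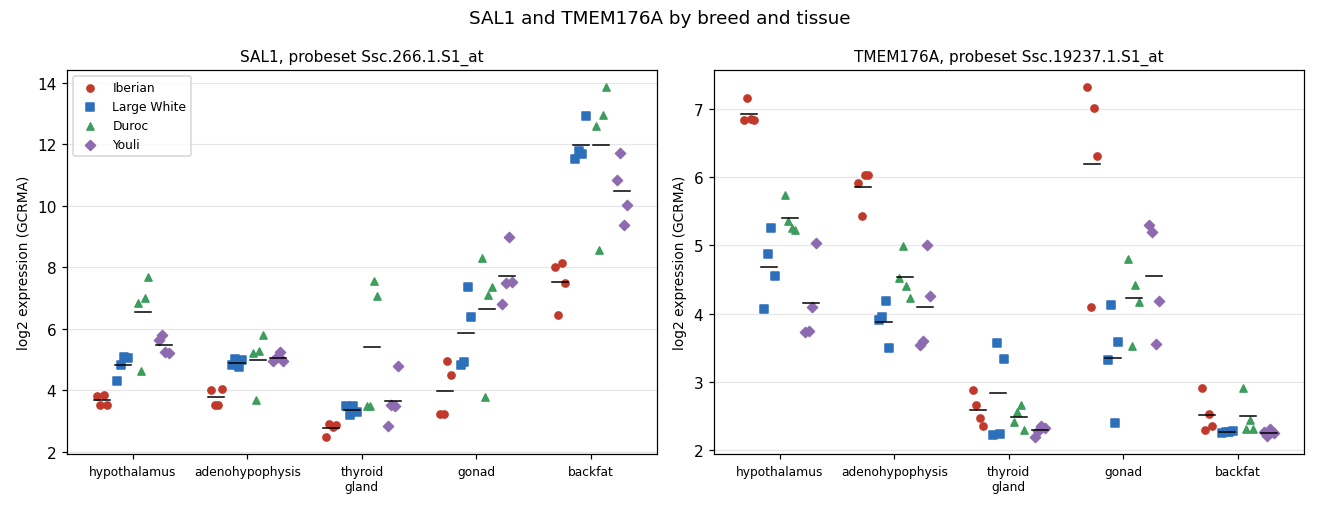
Log2 intensity of SAL1 and of the first TMEM176A probeset by tissue, with 1 point per array, Iberian pigs left of the other breeds and a short line at each breed mean. SAL1 in Iberian backfat lies at 6.45 to 8.15 under the 8.56 to 13.86 of the others, and TMEM176A in Iberian hypothalamus lies at 6.84 to 7.16 over their 3.73 to 5.74.

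TMEM176A was higher in Iberian pigs in the brain and pituitary samples and was close to the floor in thyroid gland and backfat. In the hypothalamus its first probeset read 6.84, 7.16, 6.85 and 6.85 in IBF22, IBF25, IBM23 and IBM24, against 3.73 to 5.74 (median 4.95) in the others. In the adenohypophysis it read 5.91, 5.43, 6.03 and 6.04, against 3.49 to 5.00 (median 4.20). The ranges were apart in both tissues, with differences of 2.18 and 1.68 log2, or 4.52-fold and 3.20-fold.

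In the gonad TMEM176A read 7.32, 4.10, 7.01 and 6.32 in Iberian pigs, against 2.40 to 5.30 in the others, where the 4.10 was the IBF25 array that lacked ovary markers. With it the difference was 2.14 log2 and the ranges overlapped. Without it the Iberian mean was 6.88 ± 0.51 (SD, n = 3), the difference was 2.84 log2, and the lowest Iberian value, 6.32, was above the highest other, 5.30. In thyroid gland and backfat the Iberian means were 2.59 ± 0.23 and 2.52 ± 0.28, against 2.53 ± 0.45 and 2.34 ± 0.19 in the others, and no difference was detectable at this signal.

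The second TMEM176A probeset was dim, with a mean of 2.38 over all arrays. It was set apart in the adenohypophysis, at 2.54, 3.19, 2.57 and 2.85 in Iberian pigs against 2.24 to 2.31 in the others. In the hypothalamus IBF25 and IBM24 had 4.36 and 4.56, IBM23 had 2.89 and IBF22 had 2.27, against 2.24 to 2.37 in the others. The pair thus shared a direction in the adenohypophysis, but the order of the Iberian animals differed, and their correlation with breed means subtracted was -0.56 for the mean of 5 tissues. Markers of macrophages and dendritic cells, 8 measured of 12, had summed levels in the hypothalamus of 11.6 to 12.7 in Iberian pigs and 10.7 to 12.4 in the others, and 0 of the 8 were set apart. Their median Iberian difference there was 0.54 log2, and IBM23, IBF25, IBM24 and IBF22 ranked 16, 15, 11 and 5 of 16 from the lowest. It was 0.09 log2 in adenohypophysis and 0.26 in gonad, with overlapping sums. In the hypothalamus arrays the 8 neuropeptide genes given above also averaged higher in Iberian pigs. The part of either in the TMEM176A values was not tested. TMEM176B, the neighbouring paralog, overlapped between Iberian and other pigs in each of the 5 tissues.

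HNRNPL split the animals, not the breeds. In the hypothalamus its probeset read 7.29, 3.40, 4.39 and 8.31 in IBF22, IBF25, IBM23 and IBM24, against 3.38 (LWM02) and then 7.41 to 9.51 in the others. The thyroid values were 7.49, 3.43, 3.38 and 8.58, against 3.06 in LWM02 and 7.70 to 9.68 in the remaining 11. IBF25, IBM23 and LWM02 were the 3 lowest animals in each of the 5 tissues, with values of 3.06 to 4.70, while the other 13 had 7.12 to 9.88.

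The space between those 3 animals and the rest was 4.06 log2 in thyroid, 3.12 in gonad, 2.89 in hypothalamus, 2.82 in backfat and 2.54 in adenohypophysis. No array of HNRNPL lay between 4.70 and 7.12 in any tissue. Correlations of the animals' HNRNPL values between tissues were 0.964 to 0.990 over the 10 tissue pairs, with a mean of 0.975 (n = 16 animals, the same in each tissue). These 3 animals were below all others by 1 log2 or more in at least 1 tissue in 1 of 23999 probesets, the HNRNPL one (0.00417%). The Iberian mean, 5.88 ± 2.52, was lower than that of the others, 8.10 ± 1.42 (SD, n = 4 and 12), but its spread came from the IBF25 and IBM23 values, and in every tissue the Iberian range overlapped that of the others. Among the remaining animals the Youli males YLM18 and YLM19 were the highest, with means of 9.54 in both.

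RHOB split the animals too, but other ones, and in 2 of its 4 probesets. In the adenohypophysis the first probeset read 2.0, 4.55, 2.05 and 5.55 in IBF22, IBF25, IBM23 and IBM24, against 1.94 (LWF05), 2.08 (LWM04) and then 5.03 to 6.05 in the others. In the hypothalamus it read 3.34, 6.83, 3.97 and 6.86, against 4.11 (LWF05), 4.35 (LWM04) and 6.34 to 8.53. The pattern was the same in thyroid gland and backfat, where IBF22, IBM23, LWF05 and LWM04 were again the 4 lowest, under a space of 1.05 and 1.43 log2. In the gonad these 4 animals had 4.92, 3.87, 5.26 and 5.55 among values of 4.83 to 7.27, and no such split was seen.

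The second RHOB probeset had the same 4 animals lowest in those 4 tissues and correlated with the first at 0.89 to 0.99. The third and brightest (mean 10.98 against 5.65 and 6.88 for the first and second), showed no split: its correlation with the first was 0.58 to 0.73, and its Iberian differences ran between -0.38 and -0.22 log2 with overlapping ranges. The fourth stayed near the floor with a mean of 2.34. In the hypothalamus the third probeset read 11.51, 11.42, 11.29 and 11.50 in Iberian pigs, against 11.45 to 12.43 in the others, so that all 4 Iberian animals lay at the low end and the split of the first probeset was not seen.

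**Figure D4:**
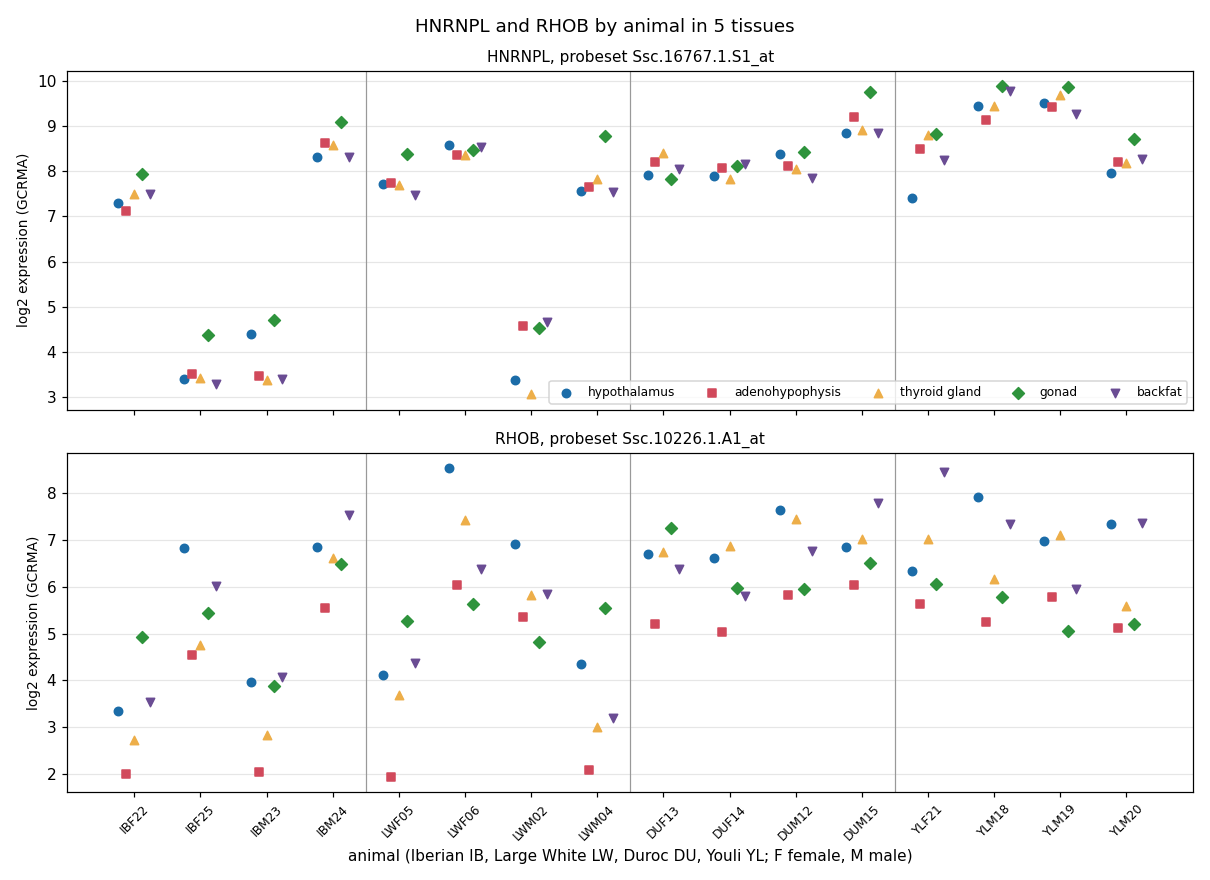
Log2 intensity of HNRNPL and of the first RHOB probeset for each of the 16 animals, Iberian pigs first, with 1 point per tissue. IBF25, IBM23 and LWM02 have HNRNPL values of 3.06 to 4.70 in all 5 tissues, and IBF22, IBM23, LWF05 and LWM04 have the lowest RHOB values in 4 tissues.

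Unlike HNRNPL, the RHOB split was shared with many transcripts. The same 4 animals lay below all others in 2.95% of all hypothalamus probesets, 5.08% of those in adenohypophysis, 2.91% in thyroid gland, 2.21% in backfat and 0.0833% in gonad. They did so in at least 4 tissues in 95 probesets. By this rule, with no margin, IBF25, IBM23 and LWM02 lay below all others in 0.0125% of hypothalamus probesets and 0.2% in adenohypophysis. Their shares were 0.213% in thyroid gland, 0.117% in backfat and 0.0708% in gonad. With a margin of 1 log2 in at least 1 tissue, 0.371% of probesets had the RHOB animals below all others. For the HNRNPL animals that share was 0.00417%. Over the mean of 5 tissues, 232 of 23998 probesets correlated with the first RHOB probeset at 0.9 or above and 91 at -0.9 or below, against 0 and 0 for HNRNPL. GANAB, a subunit of the glucosidase that trims N-glycans, was the named gene most like it (r = 0.97, n = 16 animals): it averaged 7.37, 7.29, 7.90 and 7.63 in IBF22, IBM23, LWF05 and LWM04, and 9.53 to 9.80 in the other 12. TMBIM1 and AUP1 followed, both with r = 0.96.

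Those animals also had large 3′ to 5′ differences of the GAPDH control transcript. The difference, averaged over 5 tissues, was 1.76, 1.93, 1.94 and 1.97 log2 in IBF22, IBM23, LWF05 and LWM04, ranks 11, 14, 15 and 16 of 16 from the lowest. In the other set of GAPDH controls their ranks were 15, 14, 13 and 16, and for actin 14, 3, 6 and 12. Their array medians held ranks 4, 1, 3 and 2. The part of RNA quality in the RHOB values was not tested. Over breeds, the GAPDH differences of Iberian and other pigs overlapped in every tissue. The Iberian mean was higher in thyroid gland (1.78 against 1.52), gonad (1.71 against 1.57), adenohypophysis (1.75 against 1.66) and hypothalamus (1.93 against 1.91). In backfat it was lower (1.71 against 1.79).

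To ask whether levels fell into separate classes, the widest gap between neighbouring animals was taken in each tissue, and a gap of at least 1 log2 with 2 or more animals on each side was counted. In the hypothalamus 6 of 12 probesets had one, against 1.11% of all probesets: HNRNPL, both split RHOB probesets, SAL1 and both TMEM176A probesets. In the adenohypophysis there were 3, against 1.08%, all of HNRNPL or RHOB. The thyroid gland had 3 against 1.1%, in the gonad 3 against 6.64% and in backfat 3 against 1.37%. This count also rests on values that picked the genes. The CCDC25 and NTPCR probesets had no such gap in any tissue: the space between Iberian and other CCDC25 values was 0.261 to 0.893 log2. The first TMEM176A probeset had such a gap in the hypothalamus between the 4 Iberian animals and the other 12 (1.10 log2). Its gonad gap lay between 3 Iberian animals and the other 13 (1.02 log2). The second had a hypothalamus gap of 1.47 log2, with IBF25 and IBM24 above it and IBF22 and IBM23 below with the other breeds. For SAL1 the gap did not follow the Iberian animals in the hypothalamus, where DUF13, DUM12 and DUM15 were above it, nor in the thyroid gland, where DUM12 and DUM15 were. In the gonad the 4 Iberian animals lay below the SAL1 gap (1.44 log2), together with DUF14, LWF05 and LWF06.

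The genes whose mean over 5 tissues ran most like that of a member were sought among named genes over the 16 animals. For the second CCDC25 probeset they were TMEM176A (r = 0.94), AMBN (r = 0.83) and ZNF207 (r = -0.82), and with breed means subtracted SF1, RGS18 and SELENOT, at 0.78 to 0.85. For the first TMEM176A probeset ZNF207 (r = -0.85), RLBP1 (r = -0.84) and WDR26 (r = -0.81) led. For SAL1 FPGT (r = -0.85), NUCB2 (r = -0.83) and KLF11 (r = 0.82) did, for the second NTPCR probeset KLHDC2 (r = 0.90), LOC100517372 (r = -0.87) and PREP (r = 0.87), and for HNRNPL TMED7 (r = -0.82), DKK1 (r = -0.81) and PPM1F (r = 0.80). With breed means subtracted, the highest r were those of MRC1, LRP8 and MCUR1 for TMEM176A and of NOTCH4, IL18 and C4A for SAL1. For NTPCR they were MEIS1, MAP1A and UBL4A, and for HNRNPL RBM23, ANGPTL4 and ZKSCAN5. These coefficients are the largest out of 6765 genes over 16 animals, and CCDC25 and TMEM176A share the breed contrast that picked them. Other partners carried an Iberian contrast too, as FPGT did (7.78 ± 0.10 against 7.08 ± 0.22, SD, n = 4 and 12). AMBN, RLBP1 and DKK1 were dim, at 2.18 to 4.50.

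Few genes of the families related to the members were set apart. Of 21 measured HNRNP family genes, 8 lipocalins, 5 CCDC25 partners and 2 TMEM176 and MS4A genes, 0 were set apart in Iberian pigs in any tissue. Of 17 nucleotide phosphatases and kinases 1 was: NUDT5, which hydrolyses ADP-ribose, averaged 8.28 ± 0.16 in Iberian thyroids and 9.0 ± 0.44 in the others (SD, n = 4 and 12), a difference of -0.71 log2. Among 9 markers of salivary and mucous epithelium, CDH1 (E-cadherin) was higher in Iberian hypothalamus, at 6.06 ± 0.14 against 4.26 ± 0.80. Of the genes that neighbour the members in the Sscrofa11.1 annotation, 10 for each, 1 of 60 was set apart in a tissue: TOMM20, near NTPCR, in 1 tissue. Over all probesets, 1.70% were set apart in 1 or more tissues, and 2.07% with 1 probeset per named gene, the unit of these counts. Nothing particular to these families is therefore read from the counts.

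Beyond breed, the members differed in how they were spread over tissues, a comparison the choice of genes did not use. The moderated F test of limma over 80 arrays called 11 of the 12 probesets between tissues, where 94% of all probesets were called, and HNRNPL was the one not called (adjusted p = 0.815). With the animal as a block, which takes out the animals' own levels, limma called 12 of 12, HNRNPL included (adjusted p = 1.5e-05). SAL1 had the clearest tissue pattern: it averaged 10.50 ± 2.25 in backfat, 6.05 ± 1.84 in gonad, 5.13 ± 1.25 in hypothalamus, 4.68 ± 0.70 in adenohypophysis and 3.80 ± 1.46 in thyroid gland (SD, n = 16 each). Backfat was 5.58 log2 above the mean of the other 4 tissues (SE 0.31, limma adjusted p = 4.1e-27), and the steps between the other neighbours in that order were under their spread.

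TMEM176A ran the other way. Its first probeset averaged 5.29 ± 1.14 in hypothalamus, 4.59 ± 0.88 in adenohypophysis, 4.58 ± 1.36 in gonad, 2.55 ± 0.40 in thyroid gland and 2.38 ± 0.22 in backfat, and only the step of 2.03 log2 from gonad to thyroid gland was over the larger SD. Hypothalamus was 1.76 log2 above the mean of the other tissues (SE 0.20, limma adjusted p = 1.6e-12) and backfat differed from it by -1.87 (SE 0.20, adjusted p = 2.0e-13). NTPCR was highest in adenohypophysis, by 0.62 and 0.99 log2 for its probesets over the mean of the other tissues, and lowest in thyroid gland, by -1.08 and -0.80. CCDC25 had shallow tissue steps: the first probeset averaged 9.76 ± 0.19 in backfat and 8.99 ± 0.41 in gonad at its ends, and the second 7.98 ± 0.89 and 7.48 ± 0.84.

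The bright RHOB probeset averaged 11.72 ± 0.30 in hypothalamus, 11.69 ± 0.50 in backfat, 11.18 ± 0.39 in thyroid gland, 10.48 ± 0.54 in gonad and 9.84 ± 0.31 in adenohypophysis (SD, n = 16 each), and the hypothalamus and backfat levels did not differ beyond their spread. The 3 RHOB probesets above the floor were all called higher in hypothalamus (0.85, 0.84 and 0.92 log2) and lower in adenohypophysis (-1.33, -1.20 and -1.42). HNRNPL averaged between 7.37 ± 1.93 in hypothalamus and 7.98 ± 1.82 in gonad, where the SDs hold the split between animals that recurred in every tissue. With the animal as a block, gonad was 0.53 log2 above the mean of the other tissues (SE 0.09, limma adjusted p = 7.9e-07) and hypothalamus differed from it by -0.22 (SE 0.09, adjusted p = 0.033).

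Counted by tissue, limma called 6 of 12 member probesets higher and 2 lower in hypothalamus than in the mean of the other tissues, where 24.3% and 36.5% of all probesets were called. The counts were 3 higher and 5 lower in adenohypophysis (26.4% and 27.5% of all), 1 and 4 in thyroid gland (26.6% and 25.8%), 2 and 4 in gonad (27.7% and 38.2%), and 6 and 1 in backfat (42.2% and 31%).

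Sex was compared in each tissue with breed in the fit. In the gonad limma called 2 of 12 probesets between testis and ovary, where 28.3% of all probesets were called. The first NTPCR probeset averaged 7.63 ± 0.40 in testes (SD, n = 9) and 8.19 ± 0.36 in ovaries (n = 7), a fitted difference of -0.57 log2 (SE 0.16, limma adjusted p = 0.016). It was 7.02 to 8.06 in testes and 7.81 to 8.81 in ovaries. The third RHOB probeset averaged 10.18 ± 0.43 in testes and 10.86 ± 0.41 in ovaries, a difference of -0.65 log2 (SE 0.21, limma adjusted p = 0.031). Without IBF25 the differences were -0.51 (adjusted p = 0.030) and -0.72 (adjusted p = 0.026). The RHOB call was lost when any 1 of DUM12, DUF13, IBF22, IBM23, LWM02, LWF05 or YLF21 was left out (limma adjusted p of 0.050 to 0.127).

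SAL1 had 6.86 ± 1.39 in testes and 5.01 ± 1.91 in ovaries, a difference of 1.49 log2 (SE 0.53) that did not pass in limma (adjusted p = 0.054). The ovaries ranged from 3.23 to 8.30, the highest being DUF13, without which the adjusted p was 0.00135. The second NTPCR probeset differed by -0.52 log2 (limma adjusted p = 0.053). With dim probesets removed before the fit, both passed (limma adjusted p of 0.032 for SAL1 and 0.039 for NTPCR). That gave 4 calls in place of 2. Quantile normalization within tissue let SAL1 pass (1.56 log2, limma adjusted p = 0.049) but not this NTPCR probeset (adjusted p = 0.056). With dim probesets kept and IBF25 left out, neither passed. The differences were then 1.49 log2 for SAL1 and -0.43 log2 for NTPCR (limma adjusted p of 0.075 and 0.097).

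Outside the gonad, limma called 0 of 12 member probesets between males and females in hypothalamus, adenohypophysis, thyroid gland and backfat, where 0.0667%, 0.5%, 0.0792% and 0.05% of all probesets were called. At an unadjusted p under 0.05 there were 0, 1, 1 and 0. The difference between the sexes in the gonad was set against that in the other 4 tissues of the same animals, and 25.3% of all probesets were called. Among the members limma called the first NTPCR probeset (-0.40 log2, SE 0.11, adjusted p = 0.017) and the third RHOB probeset (-0.71 log2, SE 0.21, adjusted p = 0.026). The RHOB value lost its call when DUM12, DUF13, LWM02, LWF05 or YLF21 was left out (limma adjusted p of 0.052 to 0.104).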

How the data were processed

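Levels came from 80 Affymetrix porcine GeneChip arrays, 5 tissues of 16 pigs. The authors normalized all arrays together by GCRMA, and the deposited values are log2 intensities, which were used without further scaling. Background correction by GCRMA pulls dim probesets towards a common floor, so differences near it are understated. Precision is limited by how many animals there are, since the 80 arrays are repeated samples of the same 16 pigs. Of 24123 probesets, 124 controls were left out. Probesets were named from the platform annotation (10069 with 1 symbol, 198 with several, 13732 with none), and 9961 of the single symbols, with 12 of 12 members, matched the Sscrofa11.1 annotation, used for names and neighbours only.

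The members and the gene lists were chosen with earlier results of these data known. The result of 1 gene list is not reported here. Breed, sex and animal were taken from the sample titles. For 11 of 16 thyroid arrays the titles and the descriptive fields conflict (0 of 64 elsewhere), and over 200 probesets 16 of 16 thyroid arrays were nearest to the same animal's other tissues under the titles, as in each tissue. The same animal gave all 5 tissues, so its number pairs the samples.

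Sex (with breed in the model) and tissue were tested with limma 3.58.1 in R 4.3.3, with Benjamini-Hochberg adjustment over 23999 probesets and a threshold of 0.05. The fits were tested on simulated data. All probesets of the 6 genes are named. Like genes were the 3 with the largest absolute r per probeset, neighbours the 5 nearest measured on each side, and list genes those set apart or called for sex outside the gonad. Alternatives were array centring, quantile normalization within tissue, a low-signal filter at log2 4, the field labels of thyroid arrays, the animal as a block, leaving out each animal and, chosen after seeing the data, gonads without IBF25.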

Additional observations from a re-analysis of the deposited data

Results flagged for a closer look

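The 4 Iberian arrays of each member probeset and tissue, and the testes and ovaries of the probesets called for sex, made 64 groups that were examined for an array far from its fellows. Of these 2 had one, where chance gives about 1 in 20. The Iberian gonad array of IBM24 read 8.04 for the second CCDC25 probeset, and its gap to the nearest of the other 3 (8.93) took up 0.871 of the range. In the hypothalamus IBF25 read 7.16 for the first TMEM176A probeset, with a gap to the next animal (6.85) of 0.950 of the range, though the whole Iberian range there was narrow, from 6.84 to 7.16. Neither array changed the side of the other breeds on which the Iberian values lay.

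The difference between males and females was not the same in gonad as in the other 4 tissues for 2 member probesets in limma: by -0.40 log2 for the first NTPCR probeset (adjusted p = 0.017, 0.012 without IBF25) and by -0.71 log2 for the third RHOB probeset (adjusted p = 0.026, 0.027 without IBF25).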

How the results depend on the processing

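With the descriptive fields of the thyroid arrays in place of their titles, 0 member probesets were set apart there in place of 3, and the NTPCR differences reversed to 0.19 for its first probeset and 0.12 for its second, as 1 of 4 thyroid arrays is Iberian under both. With the low-signal filter (16139 of 23999 probesets kept, 10 of 12 members) the gonad sex calls were 4 in place of 2. With the animal as replicate block, 12 in place of 11 member probesets were called between tissues (HNRNPL added), and 39 in place of 34 of 60 tissue contrasts. Array centring, quantile normalization and the block changed no count by over 1.5 times.

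Leaving out 1 animal at a time, members set apart numbered 4 to 5 in hypothalamus, 3 to 4 in adenohypophysis, 3 to 4 in thyroid gland, 1 to 2 in gonad (2 without IBF25), 2 to 2 in backfat and 5 to 5 for the mean of tissues. Differences in that mean ran from 1.75 to 1.90 for CCDC25, -1.08 to -0.90 for NTPCR, -2.41 to -2.09 for SAL1, 1.13 to 1.41 for TMEM176A, -3.12 to -1.46 for HNRNPL and -1.91 to -0.81 for RHOB. Sex calls numbered 1 to 3 in gonad, with 1 to 2 against the other tissues, and 0 to 0 in each other tissue. Tissue calls numbered 10 to 11. Near the floor, as for the second TMEM176A and the fourth RHOB probeset, signal limits what can be seen.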
